A study of Mus musculus with 8 samples.

Results

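RNA-seq counts of Gcn2 KO cells were compared with those of Gcn2 WT cells, both kept for 1 h in amino-acid-replete medium. Every gene with a mean count of at least 30 over the 4 RNA-seq libraries of the study was described, which took in 12250 of the 55536 genes listed, 10814 of them protein-coding. The cells were KRPC-A, a line of PDAC-like pancreatic tumour cells from genetically engineered mice on the C57BL/6 background (PDAC is pancreatic ductal adenocarcinoma). The groups were Gcn2 KO cells in replete medium and Gcn2 WT cells in replete medium, with 1 RNA-seq library each. A second pair of RNA-seq libraries was of Gcn2 KO and Gcn2 WT cells after 1 h in leucine-free medium. A pair of ribosome footprint libraries was of Gcn2 KO and Gcn2 WT cells in replete medium. Both pairs shared no library with this comparison and were read beside it. The labels and files do not tell how Gcn2 was knocked out, what part of the gene is missing, or whether each genotype was a single clone or a mixed population. The labels do not say whether the RNA-seq and footprint libraries of a genotype and medium came from the same culture or lysate.

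GCN2, encoded by Eif2ak4, is a kinase that senses uncharged transfer RNA when amino acids run short. It phosphorylates the translation initiation factor eIF2alpha, which slows general protein synthesis and favours production of ATF4, a transcription factor for genes of amino acid synthesis and uptake. In replete medium the pathway is known to be largely at rest, so this pair of libraries shows how the KO and WT cells differed without leucine withdrawal.

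Levels are given as CPM, reads of a gene per 1000000 scaled protein-coding reads. Ratios are log2 of KO over WT after a prior count of 0.5 was added, with a 95% exact (Clopper-Pearson) interval. A gene was called higher or lower when it differed at least 2-fold and the interval excluded 0. With 1 library per group there was no test across cultures. The intervals cover counting error only, and no difference here has a check against replicates. PCR copies were not told apart from separate molecules, so the intervals may be too narrow even for counting error. Genes that counted just enough to enter, 12 genes with a mean of exactly 30, had a median count of 31.5 in the KO library and 30 in the WT library. The 21 genes just outside, with a mean of 29.75, had medians of 33 in the KO library and 36 in the WT library.

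The KO replete library held 59132491 counted reads and the WT replete library 57455985, of which 64.2% and 72.9% were protein-coding. Mitochondrial ribosomal RNA took 33.3% of the counted reads in the KO replete library and 24.7% in the WT replete library. Markers of the labelled cell type were mixed. The ductal and biliary genes Sox9 and Spp1 and the keratin genes Krt8 and Krt18 were well counted, but the epithelial adhesion gene Epcam had 0 counts in both libraries, and Vim, the intermediate filament gene of mesenchymal cells, had 41621 counts in the KO library and 50767 in the WT library. The summed level of 11 epithelial markers was 995 CPM in KO cells and 701 CPM in WT cells, and that of 11 mesenchymal markers 1750 and 1910 CPM. Markers of acinar, endocrine, immune and endothelial cells summed to less than 1 CPM for each cell type in each library.

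Of the 12250 genes, 574 (4.69%) were called higher and 386 (3.15%) lower in KO cells. The median ratio of all genes was 0.00. The calls held 467 protein-coding genes that were higher and 273 that were lower. Most called genes were thinly counted. The fifth of genes with the lowest counts held 331 of the higher and 245 of the lower calls, and the fifth with the highest counts held 21 and 3. Only 83 of the higher and 73 of the lower genes differed 4-fold or more, and 10 and 12 differed 16-fold or more. When each gene was set against genes of like count, 173 of the higher and 93 of the lower genes lay more than 3 robust SDs from their median.

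**Figure D1:**
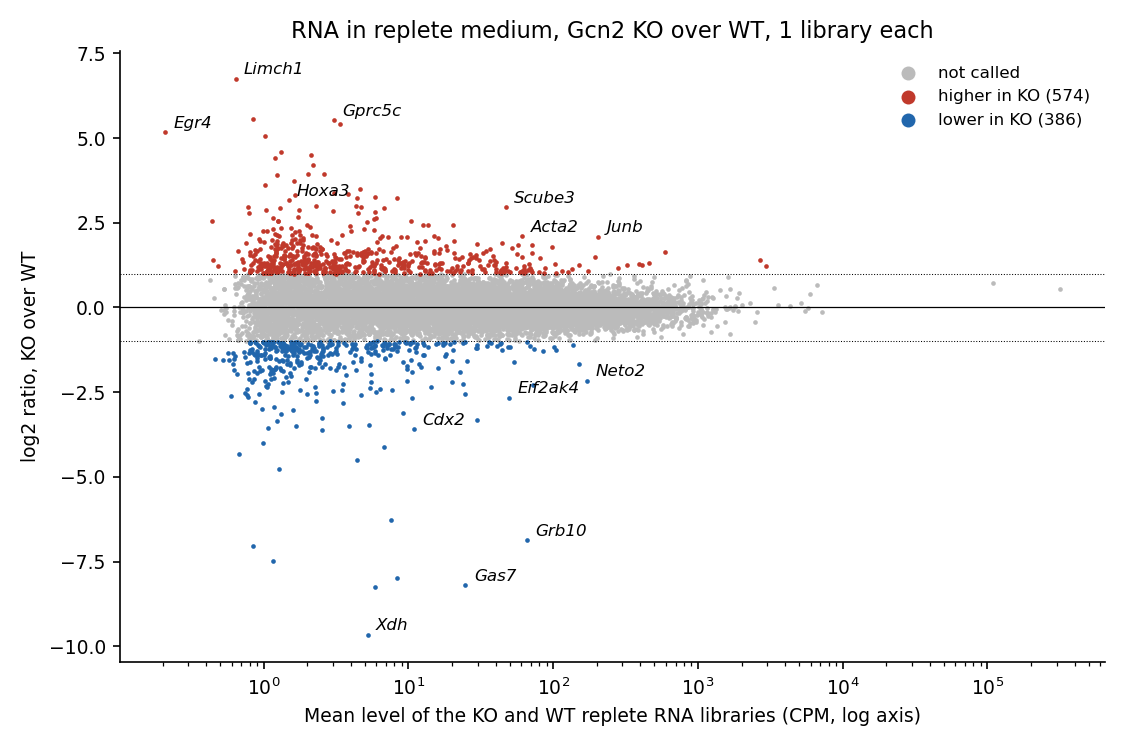
Each point is 1 of 12250 genes, with its mean level over both replete RNA libraries on a log axis in CPM and its log2 ratio of KO over WT. Red points are the 574 genes called higher and blue points the 386 called lower, dotted lines mark a 2-fold difference, and the far lower points are genes almost without reads in KO cells.

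The targeted gene was low in the KO library. Eif2ak4 (ENSMUSG00000005102; GRCm38 chromosome 2, positions 118388618 to 118475234, plus strand) had 522 counts in KO cells and 3601 in WT cells, or 13.6 CPM (95% Poisson interval 12.5 to 14.8) against 86.0 CPM (83.2 to 88.8). Its log2 ratio was -2.66 (-2.80 to -2.53), so KO cells kept 15.8% of the WT level. Since the missing part of the gene is unknown, the remaining reads do not show whether protein was made. Replete footprints over the gene numbered 47 in KO cells and 546 in WT cells, a ratio of -3.08 (-3.56 to -2.67), and leucine-free footprints 70 and 156, a ratio of -1.99 after scaling. None of the other members of the pathway was called. Of 18 measured genes for the eIF2alpha kinases, their partners and the phosphatase subunits, Eif2ak4 was the 1 called, beside 3.15% lower among all genes, and 16 of the 18 were below 0, with a median of -0.21. Among the other kinases of eIF2alpha, Eif2ak1, the haem-regulated kinase, was at -0.28, Eif2ak2, the double-stranded RNA-activated kinase PKR, at -0.07, and Eif2ak3, the endoplasmic reticulum kinase PERK, at 0.06. Impact, which encodes a protein that competes with GCN2 for its activator GCN1, was at 0.32. The lowest after Eif2ak4 were Eif2b1, a subunit of the exchange factor eIF2B, at -0.64, Ppp1r15a, the inducible phosphatase subunit GADD34, at -0.64, and Abcf1, an initiation factor partner, at -0.41. Eif2b1 and Ppp1r15a lie in the low stretches of chromosomes 5 and 7 described next.

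RNA of whole chromosome stretches was lower in KO cells. Genes on the X chromosome had a median of -0.43, with 323 of 375 below 0, and genes on chromosome 3 a median of -0.25, with 447 of 607 below 0. On chromosome 5 the genes from 60 Mb on had a median of -0.30, against 0.02 before that point, and on chromosome 7 the genes up to 80 Mb had a median of -0.33, against 0.04 beyond. The stretches and their bounds were chosen after the values were seen. In windows of 10 Mb with at least 20 genes, 35 of 35 windows in the 4 stretches were below -0.1, and 8 of 181 elsewhere. The window of chromosome 8 from 120 to 130 Mb was among those 8 and was as low, with a median of -0.27 and 64 of 83 genes below 0, -0.29 in leucine-free RNA and -0.33 in footprints. The far end of chromosome 2, from 170 Mb on, was higher, with a median of 0.29 over 72 genes.

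The leucine-free RNA and the replete footprints, from other libraries, had low medians in the same stretches. The medians in leucine-free RNA and in replete footprints were -0.46 and -0.55 on X, -0.27 and -0.34 on chromosome 3, -0.26 and -0.31 on the chromosome 5 stretch and -0.27 and -0.27 on the chromosome 7 stretch. The leucine-free over replete ratio within a genotype had a median of -0.03 in KO cells and -0.01 in WT cells over the genes of these stretches. The 4 stretches held 16.6% of the genes, 33.7% of the lower calls and 9.41% of the higher calls. Inside them 6.39% of genes were called lower, and 2.51% elsewhere. Outside them 520 genes were called higher and 256 lower. Genes described below that lie inside include Tspan6, Il1rapl1, Mid2, Vegfd and Rps4x on X, Sars, Slc7a11, Egf and Gm43062 on chromosome 3, and Cdx2, Afp and 2900026A02Rik on chromosome 5. DNA copy number was not measured. Xist, the RNA that coats the inactive X chromosome, had 496 CPM in both replete libraries. In leucine-free medium Xist was higher in KO cells, with 14377 counts of 31357692 protein-coding reads, against 12936 of 40784766 in WT cells. The Y-linked genes Ddx3y, Eif2s3y and Uty had 0 counts in all 4 RNA-seq libraries.

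**Figure D2:**
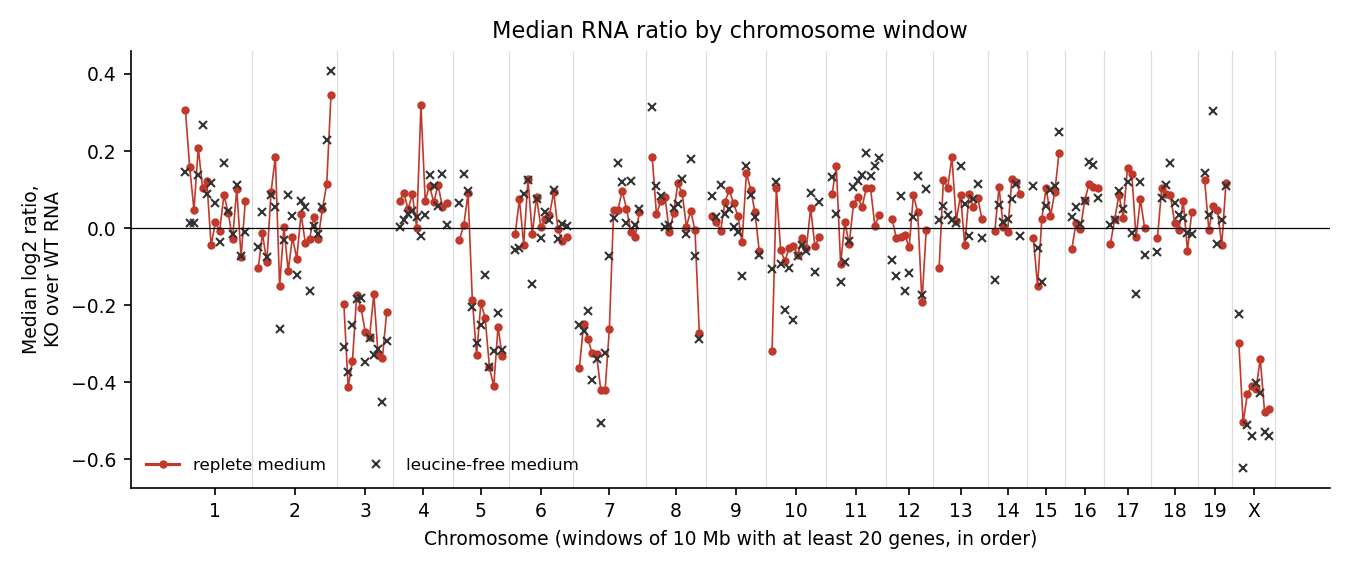
Red points give the median log2 ratio of KO over WT RNA in windows of 10 Mb along each chromosome in replete medium, and crosses give the leucine-free pair. Windows on chromosomes 3 and X, in the later part of chromosome 5 and the first part of chromosome 7 lie between -0.50 and -0.17 in replete medium, and the remaining windows lie between -0.32 and 0.35.

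ATF4 and CHOP targets did not move as a group in replete medium. Of 35 measured targets 1 was called higher and 2 lower, 16 were above 0 and the median was -0.06, with 4.69% and 3.15% of all genes called. Stc2, a secreted glycoprotein induced by stress, had 51 counts in KO cells and 337 in WT cells, a ratio of -2.59 (-3.05 to -2.17). Slc7a11, the cystine transporter subunit, had 118 and 335 counts and a ratio of -1.38 (-1.69 to -1.07), and lies on chromosome 3, where all genes had a median of -0.25. Phgdh, the first enzyme of serine synthesis, which also lies on chromosome 3, went the other way, with 456 CPM in KO cells against 192 CPM in WT cells, a ratio of 1.24 (1.21 to 1.28), although its replete footprint ratio was -0.12. Atf4 itself had 464 CPM of RNA in KO cells and 261 CPM in WT cells, a ratio of 0.83 (0.79 to 0.86) that stayed under 2-fold. Asns, asparagine synthetase, was at -0.50, Trib3, a pseudokinase, at -0.28, Chac1, a glutathione-degrading enzyme, at -0.05, and Ddit3, which encodes CHOP, at 0.02. Of 22 cytosolic aminoacyl-tRNA synthetase genes, which charge transfer RNA, Sars was called lower, with 28.3 CPM in KO cells against 58.9 CPM in WT cells, and the median was -0.12. Of 21 amino acid transporter genes 1 was called higher and 2 lower, with a median of -0.06, or 0.04 without the stretches. Slc1a3, a glutamate transporter, had 12.7 CPM in KO cells and 38.0 CPM in WT cells (-1.58), and Slc43a1, a large neutral amino acid transporter, 3.39 and 0.979 CPM (1.78).

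A small set of genes was almost without reads in KO cells. By a rule chosen after the values were seen, at most 10 counts in both RNA libraries of 1 genotype and at least 50 in both of the other, 12 genes were low in KO cells and 1 was low in WT cells. Xdh (ENSMUSG00000024066; chromosome 17, positions 73883895 to 73950196, minus strand), which encodes xanthine dehydrogenase of purine breakdown, had 0 counts in KO cells and 439 in WT cells, and 2 and 530 in leucine-free medium. With the KO library set at 3 counts, its level was 134-fold lower in KO cells. Such folds, here and below, leave out the counting error of the other library and are not lower bounds. The 95% interval of the Xdh ratio ended at -6.76. Hdgfl3, a growth factor-like gene, had 1 count in KO cells and 493 in WT cells, a ratio of -8.24 with an interval from -14.13 to -6.33. The uncharacterised gene 2900026A02Rik had 2 and 694 counts, a ratio of -7.99 (-11.36 to -6.45). Tspan6, an X-linked tetraspanin gene, had 0 and 71 counts, 21.7-fold lower with the KO library set at 3 counts (interval end -4.10). Others were Il1rapl1, Afp, Gprin3, Gm14403, Gm44645, Gas7 and Chst11. Igsf11, a cell adhesion gene, was the 1 gene of the reverse kind, with 76 counts in KO cells and 2 in WT cells, and 65 and 0 in leucine-free medium.

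In 2 of these genes the footprints did not go with the RNA, and both were picked out after their values were seen. Gas7, a cytoskeletal adaptor gene, had 6 RNA counts in KO cells and 2066 in WT cells, a ratio of -8.19 (-9.75 to -7.18). Its replete footprint counts were 419 in KO cells and 479 in WT cells, a ratio of 0.25. That is 64.8 footprint CPM in KO cells beside 0.156 RNA CPM, and 54.5 beside 49.3 in WT cells. Chst11, a chondroitin sulfotransferase gene, had 10 and 67 RNA counts and 1538 and 1838 footprint counts. Xdh footprints did follow its RNA, with 3 counts in KO cells and 237 in WT cells.

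Grb10 was the deepest fall among well-counted genes after Gas7. Grb10 is an imprinted gene whose protein binds insulin and growth factor receptors and dampens their signal. It had 42 counts in KO cells and 5441 in WT cells, or 1.09 CPM against 130 CPM, a ratio of -6.87 (-7.37 to -6.45). In leucine-free medium the counts were 26 and 5697, and in replete footprints 6 and 943. Of 20 measured imprinted genes 5 were called lower and none higher, with a median of -0.30, against 3.15% lower among all genes. Peg12 had 375 counts in KO cells and 1095 in WT cells (-1.42), and Snrpn, Rasgrf1 and Nespas were the others. Snrpn and Nespas share transcribed sequence with neighbouring or antisense genes. Snrpn was not called in leucine-free medium and Nespas was called higher there. Snrpn and Peg12 lie in the chromosome 7 stretch, and without the stretches 3 of 16 imprinted genes were lower, with a median of -0.19.

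The promoter windows of Hdgfl3 and Grb10 are shown because both genes were near silent in KO cells; CG pairs, the bases at which mammalian DNA is methylated, are in capitals. Methylation was not measured. Each window is the 250 bases before the RefSeq start site (GRCm38 patch 6), on the minus strand, and holds 30 CG pairs in Hdgfl3 and 40 in Grb10. The 8 windows at hand for the 12 genes low in KO cells had a median of 11 CG pairs and all 8965 windows a median of 17, so these windows do not stand for the set. With windows for 73.2% of the genes, no comparison of CG content between sets is valid. RefSeq places the Grb10 start 1263 bases from the gene's end in the files, and the Hdgfl3 start 14 bases from it.
Hdgfl3, chr7:81934460-81934709, minus strand: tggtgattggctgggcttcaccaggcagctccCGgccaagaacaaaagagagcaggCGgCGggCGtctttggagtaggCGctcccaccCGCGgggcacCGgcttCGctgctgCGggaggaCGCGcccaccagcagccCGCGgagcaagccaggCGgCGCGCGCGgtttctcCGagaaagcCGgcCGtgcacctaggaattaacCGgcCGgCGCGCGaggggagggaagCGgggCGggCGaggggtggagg
Grb10, chr11:12037421-12037670, minus strand: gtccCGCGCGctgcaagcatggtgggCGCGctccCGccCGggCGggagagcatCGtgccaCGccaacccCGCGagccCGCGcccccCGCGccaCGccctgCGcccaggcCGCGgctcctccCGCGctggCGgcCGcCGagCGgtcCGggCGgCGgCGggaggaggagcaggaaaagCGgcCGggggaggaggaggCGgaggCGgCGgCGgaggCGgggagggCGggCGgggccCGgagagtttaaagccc

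Other strongly lower genes included regulators and membrane proteins. Spata6, named for its role in spermatogenesis, had 0 counts in KO cells and 97 in WT cells. That was 29.6-fold lower with the KO library set at 3 counts (interval end -4.56). Il1rapl1, a synaptic receptor-like gene on the X chromosome, had 3 and 103 counts (-4.76, -7.28 to -3.39), and Cyp26b1, which degrades retinoic acid, 14 and 355 (-4.49, -5.42 to -3.77). Cdx2, a homeobox transcription factor of intestinal epithelium, had 64 counts in KO cells and 840 in WT cells, a ratio of -3.58 (-3.98 to -3.22). Among lower genes with at least 1000 counts in 1 of the libraries, Mid2, an X-linked ubiquitin ligase gene, had 5.34 CPM in KO cells against 53.8 CPM in WT cells (-3.33, -3.55 to -3.13). Neto2, an auxiliary subunit of kainate receptors, had 63.1 CPM against 282 CPM (-2.16, -2.22 to -2.09), and Pcdh17, a protocadherin, 24.7 CPM against 120 CPM (-2.28, -2.38 to -2.18). The zinc finger gene Hivep3 was at -2.54, Stac, a calcium channel adaptor, at -2.26, Cacna1c, a calcium channel subunit, at -2.19, and the transcriptional repressor Trps1 at -1.91. Of these 7 well-counted genes all were also called lower in leucine-free medium. Cacna1c was at -0.55 in footprints, where it was not called.

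The genes with the highest ratios had few reads in WT cells. Limch1, an actomyosin regulator, had 49 counts in KO cells and 0 in WT cells. That was 17.8-fold higher with the WT library set at 3 counts (interval end 3.8). Dbn1, the actin-binding protein drebrin, had 64 and 1 counts, a ratio of 5.55 (3.60 to 11.45). Gprc5c, an orphan receptor, had 231 and 5 counts (5.52, 4.41 to 7.29), and Mtus1, a microtubule-associated gene, 253 and 6 (5.41, 4.38 to 6.98). Igsf11, Itgb3 (the integrin beta 3 subunit), Spata13, Zswim6 and Tspan13 lay between 4.20 and 5.06. In leucine-free medium Itgb3 had 19 counts in KO cells and 8 in WT cells, a ratio of 1.57 that was also called higher.

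Of the 10 highest genes with at least 1000 counts in 1 of the libraries, 2 were the early genes Junb and Egr3, given further on. Scube3, a secreted and surface glycoprotein, had 3184 counts in KO cells and 448 in WT cells, or 83.0 CPM against 10.7 CPM, a ratio of 2.95 (2.81 to 3.10). Edil3, a secreted integrin ligand, was at 34.3 CPM against 6.35 CPM (2.43, 2.24 to 2.63), and Acta2, smooth muscle actin, at 99.4 CPM against 23.2 CPM (2.10). Lox, which cross-links collagen, was at 1.95, Col12a1, a fibril-associated collagen, at 1.88, Nt5dc2 at 1.91, the adhesion gene Alcam at 1.84 and the fatty acid elongase gene Elovl7 at 1.80. Each of the other 8 genes was also called higher in leucine-free medium and in replete footprints. In the list of collagens and matrix genes the calls went both ways, with 4 of 38 higher, 3 lower and a median of 0.01, beside 4.69% and 3.15% of all genes. Lox, Col12a1, Tnc (tenascin C) and Col18a1 were higher, and Col1a1, Col1a2 and the proteoglycan Bgn were lower. Col1a1 had 4.59 CPM in KO cells against 15.1 CPM in WT cells (-1.72, -1.97 to -1.47).

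Immediate early genes were the list with the most calls. These genes are transcribed within minutes of growth factor or stress signals, and many encode transcription factors or inhibitors of the same signals. Of 52 measured members 22 (42.3%) were called higher and 0 lower, 48 were above 0, and the median was 0.90, against 4.69% higher among all genes. In leucine-free medium 42 of the 52 were called higher with a median of 2.06, and in replete footprints 15 of 48 were higher with a median of 0.65. Among all genes 6.55% were called higher in leucine-free medium and 1.91% in replete footprints. Junb, an AP-1 transcription factor, had 12770 counts in KO cells and 3264 in WT cells, or 333 CPM against 77.9 CPM, a ratio of 2.09 (2.04 to 2.15). Egr4, a zinc finger factor, had 16 counts in KO cells and 0 in WT cells. That was 5.82-fold higher with the WT library set at 3 counts (interval end 2.07). Arc, a synaptic activity gene, had 29 and 5 counts (2.55, 1.28 to 4.39).

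The other transcription factors of the list followed. Egr3 had 112 CPM in KO cells against 31.0 CPM in WT cells, Egr1 553 CPM against 226 CPM, Fosb 9.67 CPM against 2.53 CPM and Fos 9.64 CPM against 2.91 CPM. Their ratios were 1.86, 1.29, 1.93 and 1.72. Jun was at 0.77 and under 2-fold. Among signal inhibitors Rgs2, which damps G protein signals, had 20.8 CPM in KO cells against 5.37 CPM in WT cells (1.95), and Dusp2, a MAP kinase phosphatase, 22.7 CPM against 7.19 CPM (1.66). Ptgs2, the inducible cyclooxygenase, had 286 CPM in KO cells against 101 CPM in WT cells. The list of ERK feedback genes shares Dusp2 and Dusp5 with the early genes. Of its 20 measured members 3 were called higher and 0 lower, beside 4.69% and 3.15% of all genes. In that list 18 were above 0, and the median was 0.31. The remaining called member of the list was Dusp10, at 1.02.

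**Figure D3:**
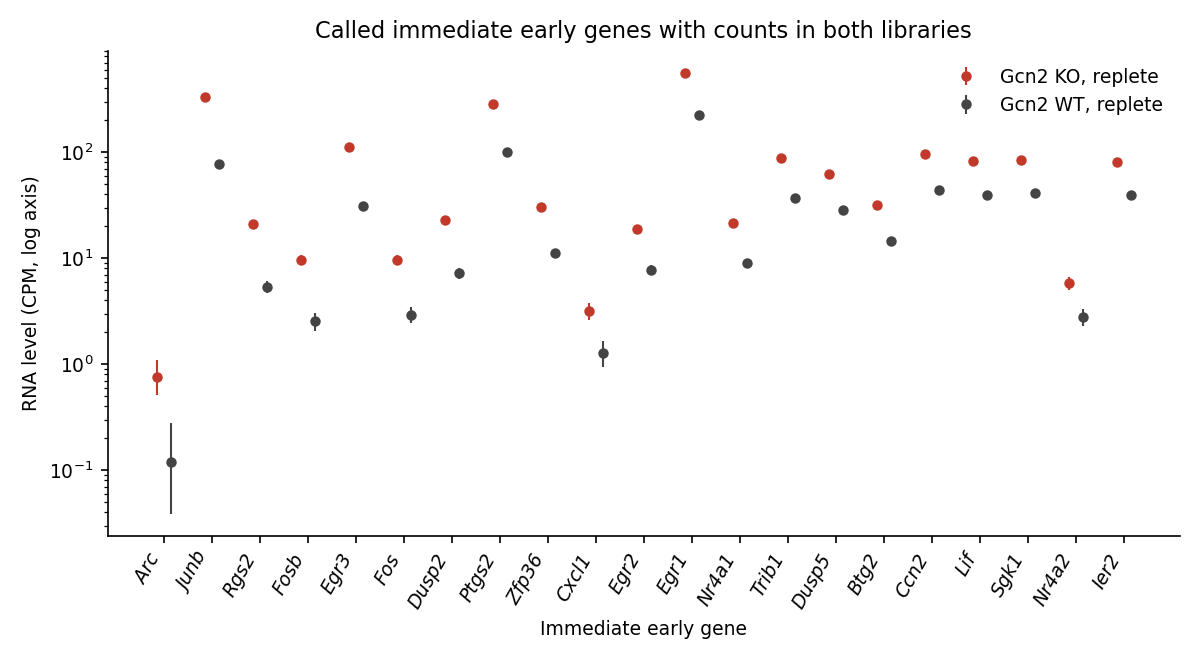
Points give RNA levels in CPM on a log axis for the called immediate early genes with counts in both replete libraries, KO in red and WT in grey, and bars are 95% Poisson intervals that cover counting error only. In each gene the KO point lies above the WT point, with 333 against 77.9 CPM in Junb and 80.9 against 39.5 CPM in Ier2. The largest ratio shown is that of Arc, at 0.756 against 0.119 CPM.

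Upstream windows of the called early genes were read for 3 motifs that are known to bind factors of early transcription, on both strands. They were the serum response element (CArG box), the cyclic AMP response element TGACGTCA and the AP-1 site TGACTCA, none of which contains another. RefSeq places the Zfp36 start 1025 bases from the gene's start in the files. RefSeq windows were at hand for 16 of the 22 genes and for 8965 of the 12250 genes. The CArG box was found in 2 of the 16 windows, TGACGTCA in 1 and TGACTCA in 1, against 1.15%, 2.93% and 2.68% of all windows, and 12 of the 16 held none of the 3. In the 38 windows of all measured early genes, called or not, the CArG box was found in 3, TGACGTCA in 4 and TGACTCA in 1. A match is a description of the letters; no match says only that the letters are not in this window. The windows of called early genes with a match are shown, with the motif in capitals. They were chosen after the genes' values and sequences were read, and their genes had ratios of 1.47 (Zfp36, an mRNA decay factor), 1.12 (Dusp5, a MAP kinase phosphatase), 1.12 (Btg2, an antiproliferative gene) and 1.07 (Lif, a cytokine).
Zfp36, chr7:28379229-28379478, minus strand: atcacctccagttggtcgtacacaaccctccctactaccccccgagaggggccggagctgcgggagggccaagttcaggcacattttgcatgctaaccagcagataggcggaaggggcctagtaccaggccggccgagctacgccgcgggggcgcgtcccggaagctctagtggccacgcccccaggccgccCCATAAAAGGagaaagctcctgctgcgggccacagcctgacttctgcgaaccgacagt
Dusp5, chr19:53528895-53529144, plus strand: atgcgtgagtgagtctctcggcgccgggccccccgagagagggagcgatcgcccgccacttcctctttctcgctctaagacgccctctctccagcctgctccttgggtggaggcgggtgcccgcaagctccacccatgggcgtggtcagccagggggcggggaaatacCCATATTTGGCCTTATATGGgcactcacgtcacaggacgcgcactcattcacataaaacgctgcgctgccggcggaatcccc
Btg2, chr1:134079156-134079405, minus strand: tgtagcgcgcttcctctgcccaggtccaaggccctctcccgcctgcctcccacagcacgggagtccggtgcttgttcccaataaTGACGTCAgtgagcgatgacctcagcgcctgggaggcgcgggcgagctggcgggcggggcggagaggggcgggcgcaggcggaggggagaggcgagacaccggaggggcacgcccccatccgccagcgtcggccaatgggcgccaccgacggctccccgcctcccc
Lif, chr11:4257318-4257567, plus strand: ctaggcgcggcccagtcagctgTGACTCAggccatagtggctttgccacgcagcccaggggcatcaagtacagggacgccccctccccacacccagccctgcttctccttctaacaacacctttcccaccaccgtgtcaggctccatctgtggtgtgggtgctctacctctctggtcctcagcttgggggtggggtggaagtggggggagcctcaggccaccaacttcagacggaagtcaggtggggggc

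Interferon-stimulated genes, which are induced by type I interferon and by viral RNA sensing, were called lower more often than higher, largely within the low chromosome stretches. Of 23 measured genes of interferon response and antigen presentation 6 were called lower and 1 higher, 16 were below 0 and the median was -0.43, against 3.15% lower among all genes. Ifih1, the RNA sensor MDA5, had 78 counts in KO cells and 260 in WT cells (-1.60, -1.99 to -1.24), and it was also called lower in leucine-free medium and in footprints. Oasl2 had 20 and 102 counts (-2.20), Usp18, which restrains interferon receptor signals, 9 and 54 (-2.39; 36 and 60, or -0.36 and not called, in leucine-free medium), and Cxcl10, Oasl1 and Gbp7 lay between -1.12 and -1.05. Oasl1, Oasl2 and Cxcl10 lie in the chromosome 5 stretch and Gbp7 on chromosome 3. Without the stretches 2 of 18 were lower and 1 higher, with a median of -0.08. Ifit1, which binds viral RNA, was at -0.43 and Ifit2 at -0.12, both on chromosome 19. H2-K1, a class I antigen-presenting gene with near-identical relatives, had 159 counts in KO cells and 75 in WT cells (1.21), and it is uncertain for that reason. NF-kappaB targets were split, with 5 of 19 called higher, 2 lower and a median of 0.00, beside 4.69% higher and 3.15% lower among all genes. The adhesion gene Icam1 had 144 counts in KO cells and 36 in WT cells (2.11), and the chemokine gene Ccl7 28 and 134 (-2.11). Neither was called in leucine-free medium. Of 32 measured interleukin, chemokine and receptor genes 7 were called higher and 2 lower, beside 4.69% and 3.15% of all genes. They included the cytokine Il34 at 1.63 and the chemokine Cxcl14 at 1.61.

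More epithelial genes were called higher than lower, and Cdx2 was the 1 called lower. Of 20 measured genes of epithelial identity and junctions, from a list of 60, 5 were called higher, 1 lower, 15 were above 0, and the median was 0.43, against 4.69% higher and 3.15% lower among all genes. Without the stretches 4 of 16 were higher and none lower. Krt18, a simple-epithelium keratin, had 145 CPM in KO cells against 59.7 CPM in WT cells (1.28, 1.21 to 1.35). Krt7 had 150 and 49 counts (1.73), Ocln, a tight junction gene, 141 and 68 (1.17), and Cdh1, which encodes E-cadherin, 137 and 71 (1.07). Spint2 was the fifth. Sox9, a ductal progenitor factor, had 291 CPM against 154 CPM and a ratio of 0.92 under 2-fold. In replete footprints 2 of 15 of these genes were called higher, beside 1.91% of all genes. Among 12 keratin and S100 genes, which share Krt7, Krt8 and Krt18 with that list, S100a16, a calcium-binding protein, was at 2.94, with 460 and 65 counts. Mesenchymal genes were split, with 3 of 23 higher, 3 lower and a median of 0.25. The higher ones were Acta2 at 2.10, Eng at 1.40 and Tpm2 at 1.28. Snai2, a repressor of E-cadherin, had 15.5 CPM in KO cells against 32.0 CPM in WT cells (-1.05), and Foxf2 12 and 59 counts (-2.12). Vim was at -0.16 and Zeb1 at -0.16.

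Of the few measured HOX genes most were called higher. HOX genes encode transcription factors that set position along the body axis. Of 39 listed HOX genes 5 were measured and 4 were called higher, here and in leucine-free medium. Among all genes 4.69% were called higher here and 6.55% in leucine-free medium. Hoxa3 had 103 counts in KO cells and 12 in WT cells (3.18, 2.36 to 4.23), Hoxa9 336 and 63 (2.53, 2.15 to 2.95), and Hoxa5 121 and 54 (1.28). Hoxa10 had 9.59 CPM against 5.97 CPM, a ratio of 0.68. Overlapping transcripts of HOX clusters are uncertain in counts made without strand. Among 26 developmental transcription factor genes 3 were called higher and none lower, beside 4.69% and 3.15% of all genes. Eya4 had 21.3 CPM in KO cells against 3.96 CPM in WT cells (2.43), Sox11 8.08 against 2.46 CPM (1.71), and Lhx6 was at 1.15.

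**Figure D4:**
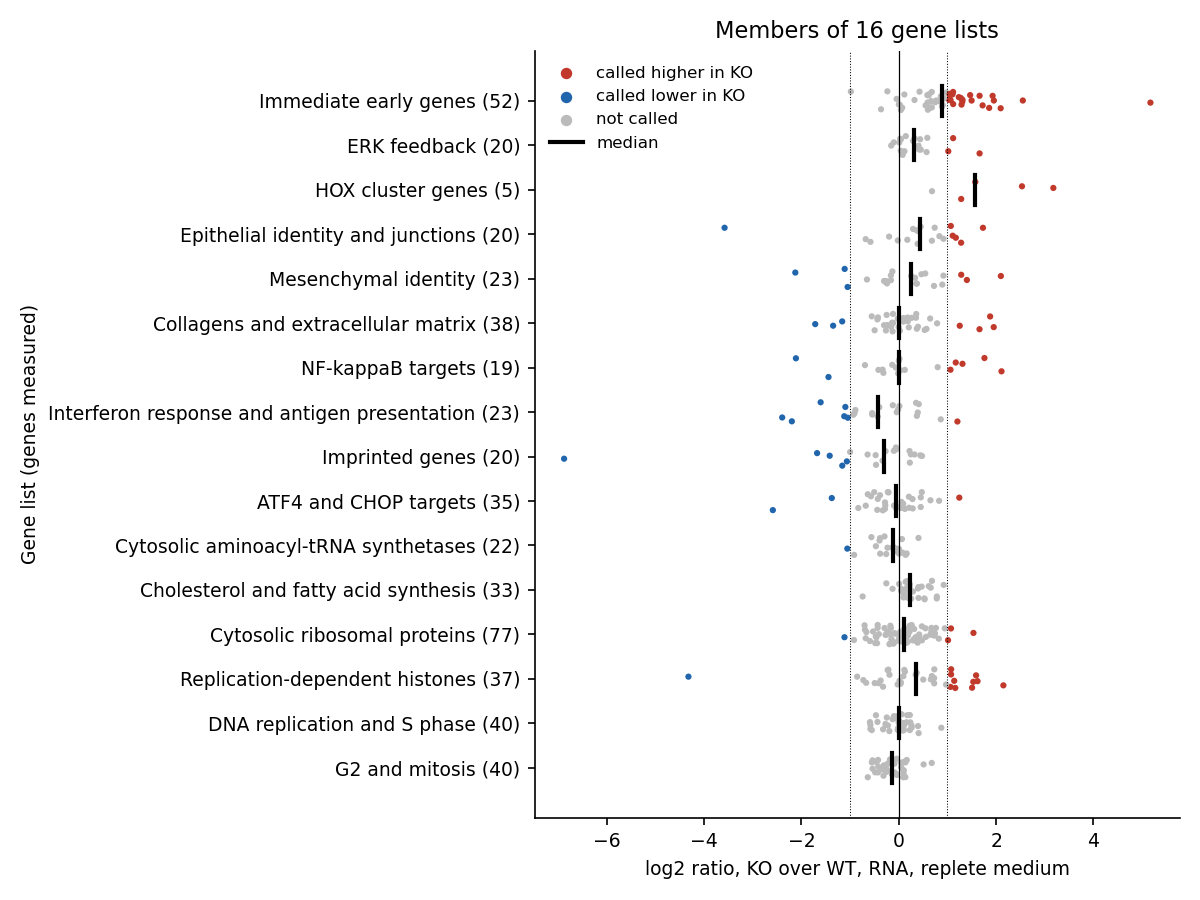
Each point is the log2 ratio of KO over WT RNA in replete medium of 1 measured member of 16 gene lists, coloured by its call, with black bars at the list medians and dotted lines at 2-fold. The early gene median lies at 0.90 and the interferon median at -0.43, while the lists of S phase and of G2 and mitosis hold no called gene.

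Growth and cell cycle genes stood close to WT. None of the 40 measured S phase genes, 40 G2 and mitosis genes and 28 RAS, MYC and cell cycle driver genes was called. Among all genes 4.69% were called higher and 3.15% lower. Calls were rare at high counts in general, with 21 higher and 3 lower among the 2450 genes of the fifth with the highest counts. The medians of these 3 lists were 0.00, -0.13 and 0.06. Myc was at -0.36. Cholesterol and fatty acid synthesis genes were above 0 in 30 of 33 cases with a median of 0.23, and none was called. Msmo1, a sterol oxidase, had 1160 CPM in KO cells against 611 CPM in WT cells (0.92). Lysosomal hydrolases had 2 of 44 called higher, about the 4.69% of all genes, and a median of -0.04, with the protease gene Ctsz at 155 CPM against 73.8 CPM (1.07). Endocytosis and macropinocytosis genes had 3 of 37 higher, against the same 4.69%, and a median of 0.16. Sdc4, a heparan sulfate proteoglycan, had 577 CPM in KO cells against 240 CPM in WT cells (1.26), Dab2, an endocytic adaptor, was at 1.14 and Cavin2, a caveola coat protein, at 1.03.

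Lists of metabolism and growth factors had 0 to 3 calls in each direction, beside 4.69% higher and 3.15% lower among all genes. In glycolysis 1 of 23 genes was higher, the lactate exporter Slc16a3 at 1.84, and 1 lower, the glucose transporter Slc2a3 at -1.36. In the list of NRF2 targets and glutathione 3 of 27 were higher and 3 lower, among them Osgin1 at 2.78, Mgst3 at 1.36 and Slc7a11. Hypoxia targets had 1 of 16 higher, Ndrg1 at 1.08, and 1 lower, Ankrd37 at -1.16. Among 41 growth factor ligands and receptors Igfbp4, which binds insulin-like growth factors, had 649 CPM in KO cells against 264 CPM in WT cells (1.30), while Vegfd, an X-linked lymphatic growth factor gene, had 173 and 577 counts (-1.61) and Egf 49 and 126 (-1.23). In the WNT and TGF-beta list 1 of 32 was called, Id4 at -1.70, and in the p53 target list 1 of 28, Btg2.

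Histone and mitochondrial RNA had positive medians in the replete pair, with smaller ones in the leucine-free pair and negative ones in footprints. Of 37 measured replication-dependent histone genes 10 were called higher and 1 lower, against 4.69% and 3.15% of all genes, and the median was 0.35. In leucine-free medium 3 were higher and 5 lower with a median of 0.05, and in footprints 0 and 1 with a median of -0.31. Among all genes 6.55% were called higher and 4.05% lower in leucine-free medium, and 1.91% and 1.04% in footprints. Hist1h4n had 84.9 CPM in KO cells against 28.2 CPM in WT cells (1.59), and its leucine-free ratio was 0.35. The 1 histone gene called lower was Hist1h1a, with 2 counts in KO cells and 54 in WT cells (-4.32). Hist1h1a was also called lower in leucine-free medium (-1.62) and in replete footprints (-2.47). Histone genes have near-identical copies, so their counts are uncertain. The 7 measured mitochondrially encoded protein genes were all above 0 with a median of 0.29 and none was called, and their medians were 0.06 in leucine-free medium and -0.28 in footprints. Of 11 mitochondrial tRNA genes 6 were called higher with a median of 1.14, and in leucine-free medium 3 were higher and 1 lower with a median of 0.57. The mitochondrial ribosomal RNA mt-Rnr1 was at 0.74, against 0.37 for the leucine-free pair, and mt-Nd6, a respiratory chain subunit gene, at 0.90, against 0.62. The share of mitochondrial ribosomal RNA was 33.6% in KO and 30.5% in WT leucine-free libraries, closer than the 33.3% and 24.7% of the replete libraries. Replication-dependent histone transcripts lack a poly(A) tail, and the part of RNA selection in these values was not tested. Ribosomal protein genes had 3 of 77 higher, 1 lower and a median of 0.12. The X-linked Rps4x had 85.9 CPM in KO cells against 186 CPM in WT cells (-1.11).

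Called genes mostly kept their side in the other libraries. In leucine-free medium 6.55% of all genes were called higher and 4.05% lower in KO cells. Of the 574 genes higher in replete medium 314 (54.7%) were called higher there and 515 were above 0, and 9 were called lower. Of the 386 lower genes 174 (45.1%) were called lower there and 313 were below 0, and 18 were called higher. In replete footprints 1.91% of 9261 genes were called higher and 1.04% lower. Footprint ratios were read where the mean count over the 4 footprint libraries was at least 30. Of the 236 higher genes with enough footprints 115 (48.7%) were called higher, and of the 123 lower genes 49 (39.8%) were called lower. Called the same way in all 3 pairs were 97 higher and 43 lower genes. Across protein-coding genes Spearman's rho of the replete ratio was 0.62 with the leucine-free ratio and 0.56 with the footprint ratio. These describe genes within the libraries of 1 experiment, and genes are not independent replicates.

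**Figure D5:**
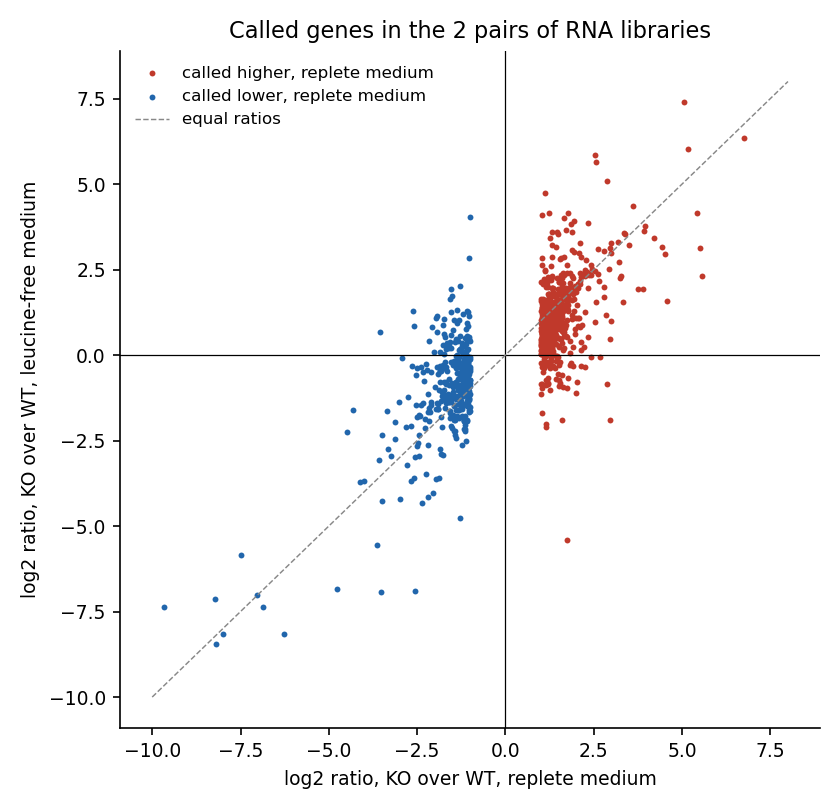
Each point is a gene called in replete medium, with its log2 ratio of KO over WT RNA in replete medium on the horizontal axis and in leucine-free medium on the vertical axis, red for the 574 higher and blue for the 386 lower genes. Most points lie in the quadrants of equal sign, 515 of the red and 313 of the blue.

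Genes not classed as protein-coding gave 107 higher and 113 lower calls among 1436, beside 4.69% and 3.15% of all 12250 genes. Of the 1436, 763 had no class, with 56 called higher and 57 lower, so they are not known to be noncoding. Gm45338, Gm10629 and Gm43062 are among those without a class. The largest ratio among the 1436 belonged to Mir145a, the gene of a microRNA of smooth muscle. It had 89 counts in KO cells and 6 in WT cells (3.91, 2.84 to 5.50). RNA-seq reads over a microRNA gene count its host transcript and do not measure the mature microRNA. Gm45338 had 116 and 9 counts (3.74) and Gm10629 88 and 12 (2.95). Gm10629 was not called in leucine-free medium, with 13 and 12 counts. Among the lower ones Gm43062 had 6 counts in KO cells and 83 in WT cells (-3.56) but 47 and 38 in leucine-free medium. C130083M11Rik, a long noncoding RNA on chromosome 5, had 13 and 119 (-3.02), and Gm14403 8 and 73 (-2.99).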

How the data were processed

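The authors deposited raw counts of reads per gene, made with featureCounts 1.6.4 on exons of Ensembl release 96 gene models (GRCm38), per the file headers, with no option for strand, multiply mapped or overlapping reads. The submitters' processing notes also name cutadapt, STAR and Subread. Strandedness and RNA selection of the libraries are not stated in the labels. Gene class came from RefSeq (GRCm38 patch 6) by symbol, with mitochondrial genes classed by position. Counts were scaled within RNA-seq by TMM factors over protein-coding genes (edgeR 4.0.16, R 4.3.3), and DESeq2 1.42.0 gave size factors for an alternative. Neither tool's test was used, since each group is 1 library. Footprints were read for genes with a mean count of at least 30 over the 4 footprint libraries. Intervals came from scipy 1.17.1, and the script was tested on simulated data. Other scalings, filters, priors, a length correction and a 1.5-fold threshold were tried, and, after seeing the data, a fit without the low chromosome stretches. Genes were named by rank in the ratio, overall and within 35 gene lists, up to 4 per list, with members that name a list. Further genes were named after their values were seen, from the called members of a list or as its well-known members. The comparison, members and lists were chosen with earlier results of these data known. Some results are not reported here.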

Additional observations from a re-analysis of the deposited data

Results flagged for a closer look

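In 3 genes the KO over WT ratio was called in opposite directions in the replete and leucine-free pairs. The difference between the media was not tested, since each ratio rests on 1 library per group. 2810405F17Rik, without a class, was at 2.96 in replete medium, with 53 counts in KO cells and 7 in WT cells, and at -1.90 in leucine-free medium, with 11 and 55 counts. AC157931.1 was at -2.62 in replete medium, with 6 and 43 counts, and at 1.29 in leucine-free medium, with 59 and 31 counts. Nespas, an antisense transcript of the imprinted Gnas locus, was at -1.07 in replete medium and at 1.26 in leucine-free medium. All 3 are thinly counted, and counts made without strand do not separate Nespas from its partner. Over all members 27 genes were called in opposite directions.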

How the results depend on the processing

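No paired analysis was possible because each group is 1 library and the labels carry no replicate numbers. Leaving out a library was not possible for the same reason. The main counts, 574 genes higher and 386 lower, were most dependent on the filter: 1066 and 840 with a mean count of at least 10, 300 and 171 with at least 100, and 2068 and 1766 with no filter beyond 1 count. A 1.5-fold threshold gave 1403 and 1090. Leaving out the 4 low chromosome stretches, an alternative chosen after seeing the data, left 520 higher and 256 lower. The other settings kept both counts within 1.5 times. The share of calls that were higher ran from 53.9% with no filter to 67.0% without the stretches. Of genes called higher, the share also called in leucine-free medium was 60.3% with at least 100 counts and 59.7% in protein-coding genes, and of genes called lower 56.7% and 52.0%.

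With no filter beyond 1 count the median was -0.12 for collagens and matrix, 0.41 for integrins, -0.15 for mesenchymal genes, 0.40 for HOX genes, -0.058 for imprinted genes, 0.23 for mitochondrially encoded proteins and -0.12 for cancer-testis genes. With at least 10 counts it was -0.076 for mesenchymal genes and -2.57 for cancer-testis genes. With at least 100 it was 0.062 for mesenchymal genes, 0.58 for histones, -0.11 for glycolysis and 0.47 for keratins and S100 genes. Without the stretches it was 0.35 for mesenchymal genes, 0.082 for glycolysis and 0.040 for amino acid transporters, and for interferon genes -0.08 against -0.43 with them. In protein-coding genes alone it was -0.10 for imprinted genes, -0.32 for X-inactivation genes and 0.29 for mitochondrial genes. Scaling by total protein-coding counts gave 0.30 for mitochondrially encoded proteins and 0.66 for mitochondrial ribosomal RNA, and TMM over all genes 0.63 for mitochondrial ribosomal RNA. With the length trend removed the medians of both were 0.19 and 0.55, and the mitochondrial chromosome was at 0.64. Medians of the other lists and chromosomes moved by less than the counting interval of their median gene. Among genes named by rank, none that was called changed direction under the other scalings, the other prior or the length correction. Changes of sign among uncalled genes were not recorded. Dusp10, Ctsz, Cavin2 and Rps25 fell just under 2-fold with the length trend removed, Rps25 also under TMM over all genes, and Fuca1 reached 2-fold with total protein-coding counts. Genes near 30 counts have wide counting intervals, and small differences in them were not detectable at this depth.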
